A study of Arabidopsis thaliana with 6 samples.

Results

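Dehydrins and the COR15 proteins of Arabidopsis thaliana were followed in rosettes that were watered or dried. The genes were taken from a fixed list of 9 loci. It held 7 dehydrins, namely COR47, LTI30, AT1G54410, ERD10, ERD14, RAB18 and XERO1, together with COR15A and COR15B. The probe annotation used here paired 13286 genes with a probe set of their own, and 5 of the 9 listed genes were among them: COR47, LTI30, AT1G54410, COR15A and COR15B. The other 4, ERD10, ERD14, RAB18 and XERO1, were not paired with a probe set in that annotation and were not analysed here. Each paired gene had 1 probe set, and all 5 probe sets were above background on all 6 arrays, so none of them passed the filter through only one of the groups.

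The samples were vegetative rosettes of the accession Col-0, 4 weeks old when the treatments began, grown in pots with soil. Watered plants kept receiving water, and the water deficit plants were dried to 65% relative water content. Each group had 3 independent replicates, numbered 1 to 3, with 1 Affymetrix ATH1 array each. No mutant, transgene or added hormone was involved, so both groups share the Col-0 genotype and differ by water supply alone as labelled. A rosette holds many cell types, and fewer cells of a type cannot be told apart from less RNA per cell in such samples. The sources used here do not say whether a replicate pooled several plants.

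Dehydrins are hydrophilic proteins of the late embryogenesis abundant class that lack a fixed fold in solution. They carry a lysine-rich segment, the K-segment, which can form a helix on membrane surfaces, and they accumulate during cold, drought and seed maturation. COR15A and COR15B are small cold-regulated proteins of the chloroplast that protect its membranes when cells lose water, as in freezing. Transcription of many of these genes is raised by CBF/DREB factors, which act in cold and drought, and by factors that respond to abscisic acid, the hormone of water stress.

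Transcripts of LTI30, COR47 and COR15A rose under water deficit, and their groups of arrays did not overlap. AT1G54410 and COR15B did not pass the test in the fit on group alone and their groups overlapped. With the replicate number as a block AT1G54410 passed as well (adjusted p = 0.0289), which makes 4 of 5 genes higher, where 25.7% of all tested probe sets were. The largest change was that of LTI30, at 45.9-fold (95% confidence interval 19.6 to 107), followed by COR15A at 5.29-fold (2.37 to 11.8) and COR47 at 4.13-fold (3.005 to 5.67). COR15A was called here but not when all probe sets were tested without a filter (adjusted p = 0.074). Of the 5 measured genes 3 were higher and 0 were lower at a limma adjusted p under 0.05 in the fit on group alone. Over all 13703 probe sets tested 21.8% were higher, and 44.9% were called in either direction. The share higher was 21% among 7264 tested genes with a probe set of their own and 20.3% among the 10744 probe sets above background on all 6 arrays. The median log2 fold change of the 5 genes was 2.05, against 0.04 over all tested probe sets. At a 4-fold change and an unadjusted limma p of at most 0.001, LTI30 and COR47 passed, 2 of 5, where 4.06% of all tested probe sets were higher. The groups did not overlap, with water deficit higher, for 3 of 5 genes and for 28.4% of all tested probe sets (56.4% in either direction).

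**Figure D1:**
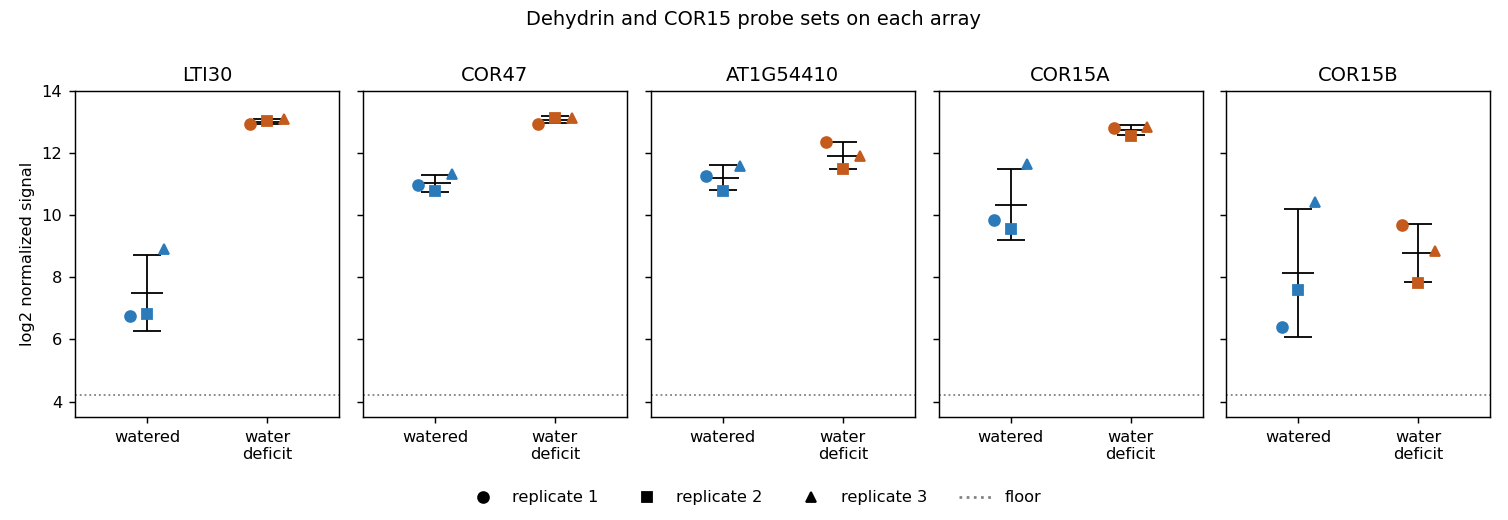
Log2 normalized signal of the 5 measured genes (vertical axis) on the 3 watered and 3 water deficit arrays, with the replicate number as symbol and the mean and SD of each group as bars. LTI30, COR47 and COR15A lie higher on every water deficit array than on any watered array, while the groups of AT1G54410 and COR15B overlap, and the dotted line is the detection floor at 4.21.

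The arrays differed in brightness before normalization. The median deposited signal per array ran from 12.6 to 38.2 in the watered group and from 18.9 to 51.6 under water deficit, and replicate 1 was the dimmest array of each group. The ratio of the 3′ to the 5′ control probe sets for actin, a measure of RNA integrity, was 21.8 on watered replicate 1 and between 7.14 and 9.29 on the other 5 arrays. Its part in the results was not tested, beyond the values without that array given below. Once normalized, arrays of the same group had Spearman correlations of 0.909 to 0.973 over probe sets, and arrays of different groups 0.680 to 0.765. The check of the tissue against marker genes was limited, since the annotation paired 1 of 6 leaf, 0 of 6 seed, 0 of 4 flower and 1 of 4 root markers. The leaf marker RCA, which encodes Rubisco activase, had a mean log2 signal of 13.02 ± 0.18 (SD, n = 3) in watered rosettes, and the root marker PYK10 one of 8.80 ± 0.89. Under water deficit RCA was lower (log2 fold change -0.82, limma adjusted p = 0.0282) and PYK10 was not called (0.59, adjusted p = 0.369), and the part of these markers in the results was not tested.

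LTI30 (AT3G50970, chromosome 3, also called XERO2) encodes a basic dehydrin built mainly of K-segments that binds to membranes. Its deposited signal was 39.6, 134 and 418 on watered replicates 1, 2 and 3, and 5778, 10000 and 9334 on water deficit replicates 1, 2 and 3. On the log2 scale after normalization these were 6.75, 6.84 and 8.92 against 12.93, 13.03 and 13.10. Every water deficit array was above every watered array, by at least 4.02 log2 units, and watered replicate 3 stood above the other watered arrays. The mean rose from 7.50 ± 1.23 to 13.02 ± 0.08 (SD, n = 3 each), a log2 fold change of 5.52 ± 0.53 (SE, limma adjusted p = 0.000155). Of 13703 tested probe sets, 26 had a change at least this high, LTI30 included. The difference within replicates 1, 2 and 3 was 6.18, 6.20 and 4.18 log2 units, so it was smallest where the watered level was highest. Without watered replicate 3 the log2 fold change was 6.23, more than 1.5 times the fold with it. The spread was unequal between the groups: 112 tested probe sets had a watered SD at least as large as that of LTI30, while 12009 had a water deficit SD at least as large. Under water deficit LTI30 held ranks 12, 8 and 6 of 22746 on replicates 1, 2 and 3. Quantile normalization sets a value by its rank, so the small SD there describes ranks.

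COR47 (AT1G20440, chromosome 1) encodes an acidic dehydrin induced by cold and dehydration. Its deposited signal was 1008, 2322 and 2412 on watered replicates 1, 2 and 3 and 5967, 10614 and 9727 on the water deficit replicates. The normalized log2 values were 10.998, 10.79 and 11.34 in watered rosettes and 12.96, 13.15 and 13.15 under water deficit. COR47 was thus well detected in watered rosettes, and the lowest water deficit array was 1.63 log2 units above the highest watered one. The log2 fold change was 2.05 ± 0.20 (SE, n = 3 per group, limma adjusted p = 0.000162). Within replicates 1, 2 and 3 the difference was 1.97, 2.36 and 1.81 log2 units. On water deficit replicates 2 and 3 the probe set held rank 5 of 22746. Quantile normalization sets a value by its rank, which gave these 2 arrays the same log2 value, so the spread of 0.11 (SD, n = 3) under water deficit describes ranks. The deposited ratio of water deficit to watered was 5.92, 4.57 and 4.03 for replicates 1, 2 and 3.

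AT1G54410 (chromosome 1), also called HIRD11, encodes a small histidine-rich dehydrin that binds metal ions. The deposited signal was 1264, 2321 and 2886 on the watered arrays and 3626, 4137 and 4493 on the water deficit arrays. In deposited units no watered array reached a water deficit array. After normalization the log2 values were 11.27, 10.79 and 11.60 against 12.36, 11.50 and 11.92, and watered replicate 3 was above water deficit replicate 2. The log2 fold change was 0.71 ± 0.29 (SE, n = 3 per group, 95% confidence interval 0.04 to 1.38), and the limma adjusted p was 0.0815. All 3 differences within replicates were above 0, at 1.09, 0.71 and 0.32 log2 units. With the replicate block its SE was 0.20 and it was called (limma adjusted p = 0.0289). It also passed without watered replicate 3, the highest of its watered arrays (log2 fold change 0.90, adjusted p = 0.0471). With median scaling the log2 fold change was 0.45 (adjusted p = 0.32). A change of 2.60-fold, the upper end of the interval, was within the error of these arrays.

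COR15A (AT2G42540) and COR15B (AT2G42530) lie next to each other on chromosome 2 with no annotated gene between them in the TAIR10.1 gene table. COR47 and ERD10 are likewise neighbours, as are LTI30 and XERO1, but in those pairs only the first gene was measured. The deposited signal of COR15A was 413, 966 and 3041 on watered replicates 1, 2 and 3 and 5548, 7647 and 8052 on the water deficit arrays. As log2 values these were 9.84, 9.55 and 11.67 against 12.84, 12.58 and 12.86. The groups did not overlap, and watered replicate 3 lay nearest to the water deficit arrays, 0.91 below the lowest of them. The log2 fold change was 2.40 ± 0.50 (SE, n = 3 per group, limma adjusted p = 0.00605). It was 3.06 without watered replicate 3, more than 1.5 times the fold with it. The differences within replicates 1, 2 and 3 were 2.99, 3.03 and 1.19 log2 units.

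COR15B varied more between replicates than between conditions. Its deposited signal was 31.6, 231 and 1285 on watered replicates 1, 2 and 3 and 429, 369 and 641 under water deficit. The log2 values were 6.41, 7.60 and 10.43 in watered rosettes and 9.69, 7.81 and 8.87 under water deficit. Watered arrays held both the lowest and the highest of the 6 values, so the water deficit range fell inside the watered range. The log2 fold change was 0.64 ± 0.95 (SE, n = 3 per group, limma adjusted p = 0.612). Its 95% confidence interval ran from -1.55 to 2.83. These arrays therefore allow anything from a fall to 0.341 of the watered level to a rise of 7.10-fold. The replicates did not share a direction, with differences of 3.27, 0.21 and -1.57 log2 units within replicates 1, 2 and 3. Only 5 of 13703 tested probe sets, COR15B included, had a watered SD of at least its 2.07. Without watered replicate 3 COR15B was called higher (log2 fold change 1.78, adjusted p = 0.0385). Without watered replicate 1, the dimmest array, the log2 fold change was -0.23 (adjusted p = 0.843).

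**Figure D2:**
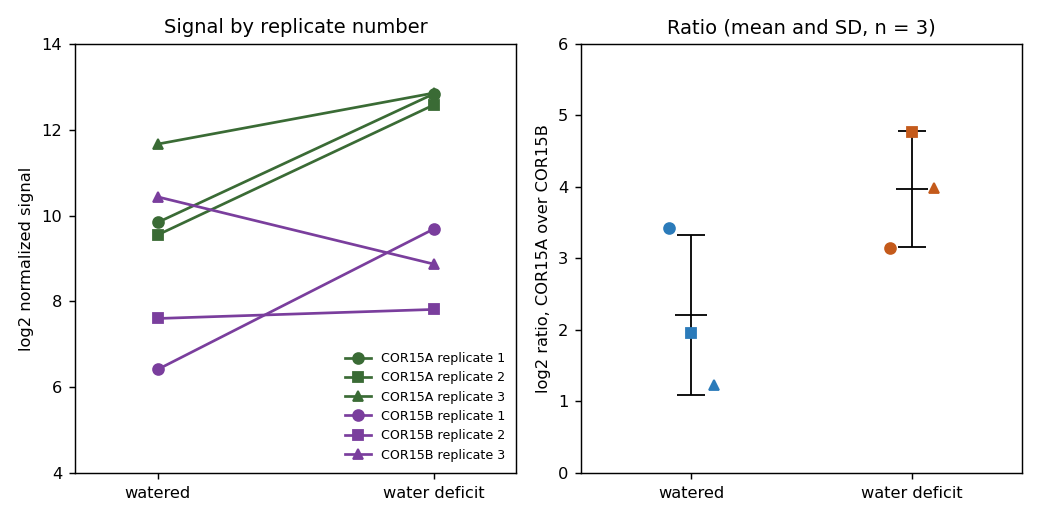
Left, log2 normalized signal of COR15A and COR15B (vertical axis) in watered and water deficit rosettes, with a line joining the arrays of the same replicate number. Right, the log2 ratio of COR15A over COR15B on each array with the mean and SD (n = 3): COR15A rises in all 3 replicates and COR15B in 2 of 3, and the ratios of the groups overlap between 3.15 and 3.43.

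The ratio of COR15A to COR15B within an array asked whether the neighbouring genes changed unequally. The log2 ratio was 3.43, 1.95 and 1.23 on watered replicates 1, 2 and 3, with a mean of 2.20 ± 1.12 (SD, n = 3). Under water deficit it was 3.15, 4.77 and 3.99 on replicates 1, 2 and 3, with a mean of 3.97 ± 0.81 (SD, n = 3). The mean difference was 1.76 log2 units (exact permutation test, two-sided, p = 0.2). With 3 arrays against 3 this test cannot go below 0.1, so it could not decide whether the genes changed unequally. The probe sets of both genes carry the plain suffix that Affymetrix gives to probes for a single transcript, and signal shared between these similar genes was not tested.

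On watered replicate 3 all 5 measured genes had their highest watered value. Over all tested probe sets 34.0% were highest on that array. Its distance above the mean of watered replicates 1 and 2 was 0.44 log2 units for COR47, 0.57 for AT1G54410, 1.97 for COR15A, 2.12 for LTI30 and 3.43 for COR15B. Distances at least as large were found at 16.6% of tested probe sets for COR47 and 11.5% for AT1G54410, but at 0.460% for COR15A, 0.365% for LTI30 and 0.0146% for COR15B. That of COR15B was the largest among genes with a probe set of their own. The next in that order, named after their values were seen, were AT5G62360 and AT4G30650, at 3.29 and 3.26. PDC2, which encodes a pyruvate decarboxylase of fermentation, stood in position 5, at 2.80. Watered replicate 3 was also the watered array most like the water deficit arrays, with Spearman correlations of 0.747 to 0.765 to them, against 0.680 to 0.719 for watered replicates 1 and 2. It had 59 probe sets at least 2 log2 units above the mean of the other watered arrays, where replicates 1 and 2 had 9 and 1 by the same measure. At least 2 log2 units below the mean of the others were 45, 4 and 22 probe sets on watered replicates 1, 2 and 3. Watered replicates 1 and 3 were the least alike, with a Spearman correlation of 0.909. It was 0.947 for replicates 1 and 2 and 0.959 for replicates 2 and 3. The actin ratio of watered replicate 3 was 7.79 and its median signal 29.6, both between those of the other watered arrays. The leaf marker RCA was lowest on replicate 3 among watered arrays, with log2 values of 13.20, 13.03 and 12.84. Under water deficit RCA was lowest on replicate 3 too, with 12.59, 12.27 and 11.75. The root marker PYK10 was highest on replicate 3 in both groups, with 7.97, 8.68 and 9.75 on the watered arrays. On the water deficit arrays PYK10 had 8.84, 9.08 and 10.25. The part of these measures in the result was not tested. Without watered replicate 3 all 5 measured genes were called higher, in a fit in which 2888 of 13183 probe sets were called higher. Each gene had its highest watered value on that array, so leaving it out could only raise the fold changes. Leaving out any other single array left 3 of 5 called higher.

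**Figure D3:**
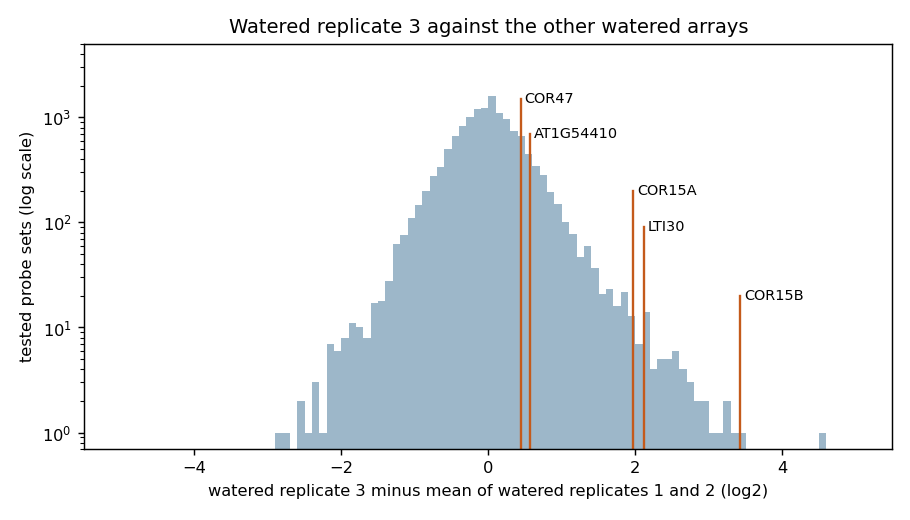
Distribution over the 13703 tested probe sets of the log2 signal on watered replicate 3 minus the mean of watered replicates 1 and 2 (horizontal axis), counted on a log scale, with vertical lines at the 5 measured genes (line height has no meaning). COR47 and AT1G54410 lie in the body of the distribution at 0.44 and 0.57, and COR15A, LTI30 and COR15B in its upper tail at 1.97, 2.12 and 3.43.

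All 5 measured genes kept a log2 fold change above 0 under each scaling of the arrays tried. Scaling mattered for the background, since the median log2 fold change of all tested probe sets was 0.04 after quantile normalization, 0.03 after median scaling, 0.48 when arrays were set to the spike-in controls and 0.51 when they were left unscaled. The calls of all probe sets were 2992 higher and 3154 lower after quantile normalization, whereas spike-in scaling gave 1344 and 525, and leaving the arrays unscaled gave 1030 and 370. Against these medians, LTI30 had log2 fold changes of 5.42 with median scaling, 5.92 with the spike-in controls and 5.96 unscaled. COR47 had 1.71, 2.21 and 2.26 in the same order, and COR15A had 2.17, 2.67 and 2.71. Those of AT1G54410 were 0.45, 0.95 and 0.997, and those of COR15B were 0.60, 1.10 and 1.15. LTI30, COR47 and COR15A were called higher under each of these scalings, and AT1G54410 and COR15B under none of them. With the spike-in controls the fit gave all 5 genes the same SE of 0.65, and unscaled the same SE of 0.71. The calls in these 2 settings therefore do not reflect the spread of each gene.

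**Figure D4:**
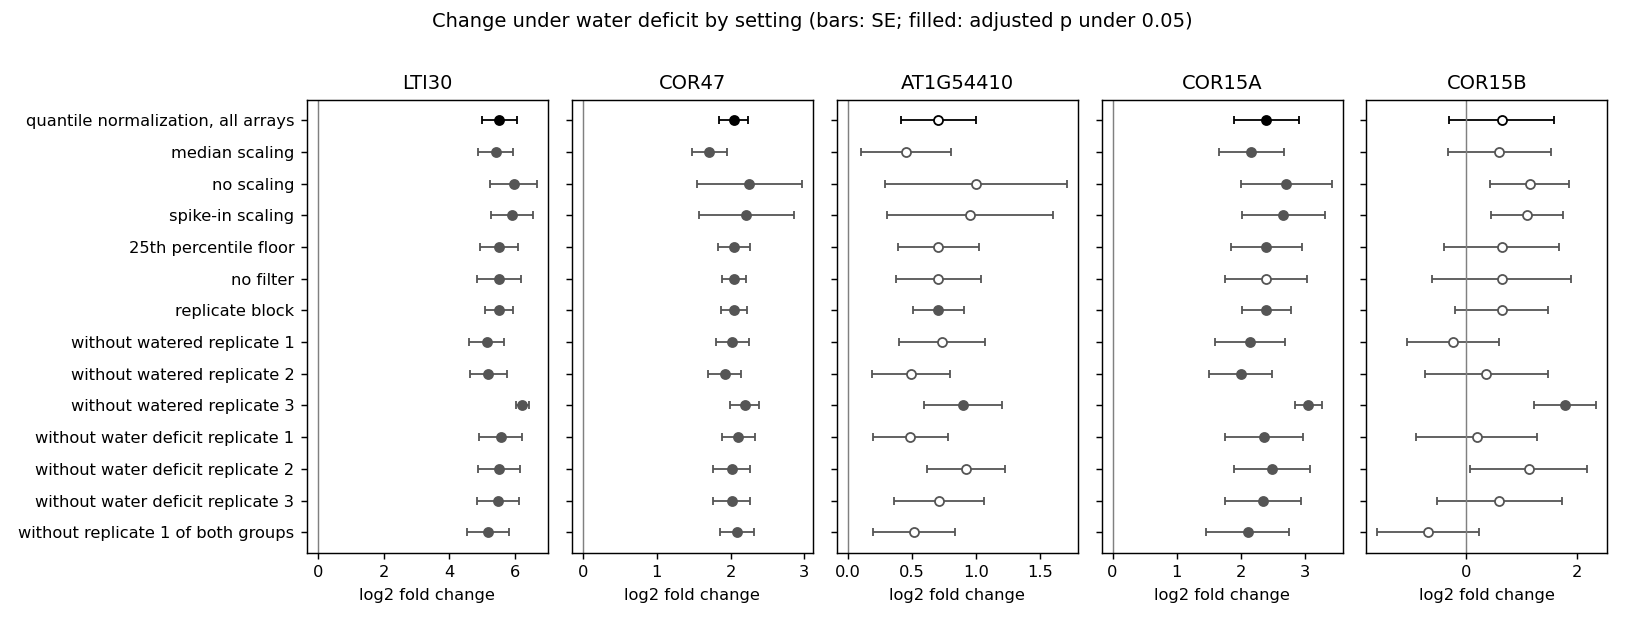
Log2 fold change of water deficit over watered (horizontal axis, bars are SE) for the 5 measured genes under each setting, filled where the limma adjusted p was under 0.05. With no scaling, and likewise with spike-in scaling, the SE is the same for all 5 genes. LTI30 and COR47 are filled throughout, COR15A is open only without a filter, AT1G54410 is filled with the replicate block and without watered replicate 3, and COR15B is filled only without watered replicate 3 and lies below 0 at -0.23 and -0.68 in the settings that leave out watered replicate 1.

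Of the 3 further dehydrin genes of Arabidopsis, all paired with a probe set, AT2G21490 and AT4G38410 were called higher and AT4G39130 was at the floor on all 6 arrays and was not tested. AT2G21490 was at the floor of 4.21 on every watered array, with log2 values of 6.01, 6.30 and 4.60 under water deficit, and was at least 2.70-fold higher (limma adjusted p = 0.0221). AT4G38410 was also at the floor in watered rosettes, with 4.56, 4.85 and 4.93 under water deficit, and was at least 1.49-fold higher (adjusted p = 0.0299). Both genes were detected under water deficit alone and, having passed the filter there, could only rise, so their calls are no support for a direction of the family.

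In a list of 24 cold-regulated genes outside the dehydrins, the annotation paired 2, and both were called higher. COR27, a cold-regulated gene linked to the circadian clock, lay at the floor in every watered replicate and had log2 values of 8.32, 6.01 and 6.33 under water deficit, at least 6.41-fold higher (limma adjusted p = 0.00508). AT4G33980 was detected on a single watered array, at 4.40, and on all water deficit arrays, at 7.31, 5.92 and 5.80 (fitted log2 fold change 2.07, adjusted p = 0.0034). AT4G33980 was at the floor on the other watered arrays, so both genes passed the filter through the water deficit arrays, and their calls are no support for a direction of the list, beside 21.8% called higher over all tested probe sets. After normalization the highest water deficit value of both genes was on replicate 1, as it was for COR15B and AT1G54410. In deposited units only COR27 of these genes was highest there, and replicate 1 was the dimmest water deficit array. Of 14 regulators of the CBF and DREB pathway, 1 was paired. STZ, a zinc finger protein that represses transcription under stress, had log2 values of 10.93, 11.12 and 11.66 against 11.60, 11.40 and 12.01 and did not pass the test (log2 fold change 0.44, adjusted p = 0.199). Its watered level too was highest on replicate 3, as was its water deficit level. None of the 40 listed genes for the synthesis, breakdown and signalling of abscisic acid, the ABF factors among them, was paired, and none of the CBF genes was.

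Genes with the pattern most like LTI30 and COR15B were taken by Pearson correlation of log2 values over the 6 arrays, among 5586 other genes with a probe set of their own above background on all arrays. For LTI30 they were AT3G16190 (r = 0.999), AT1G13990 (r = 0.999) and AT4G01610 (r = 0.999). Their log2 fold changes were 1.36, 3.54 and 2.16, all smaller than that of LTI30. For COR15B they were AT2G16365 (r = 0.983), AT3G50590 (r = 0.979) and AT1G80910 (r = 0.977), the last also called CCZ1b. None of these passed the test, with log2 fold changes of 0.17, 0.11 and 0.13. Their watered SDs, from 0.336 to 0.470, were well below the 2.07 of COR15B. The 6 arrays fall into 2 groups and were normalized together, so these correlations describe the arrays and are no test.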

How the data were processed

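By the paper's account, GeneChip software wrote CEL files, and the authors imported these to Rosetta Resolver, which corrected background and normalized. The fold changes they made in Resolver were not used. The deposited values, 1 column per array, were taken to be intensity on a linear scale. That was inferred from the values, and whether they already carry processing by Resolver was not established. Array means differed, from 79.4 to 261, and 13.2% to 17.8% of the values on an array were at or below 0.

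The table held 22810 probe sets, 64 of them controls. Intensities were quantile normalized, raised to a floor of 18.5 units (4.21 on the log2 scale, the highest value of 27 Bacillus control probe sets) and converted to log2. The 13703 of 22746 probe sets above the floor on at least 3 of 6 arrays were tested with limma 3.58.1 in R 4.3.3 (lmFit and eBayes, two-sided, group only), with Benjamini-Hochberg adjustment over all of them. The COR15 ratio was tested with scipy 1.17.1.

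Genes were named through a platform table (13513 probe sets with 1 gene, 503 with several, 8730 with none) updated by TAIR10.1 gene identifiers. All listed genes with a probe set are named; genes alike in pattern are the 3 with the highest correlation, for the called gene with the largest change and for the gene with the largest spread, which also had the highest adjusted p. From the pathway lists, called genes and listed CBF or ABF factors were to be named; STZ and PYK10 are named as the only paired members of their lists. Members, lists and settings were chosen with earlier results of these data known. Deviations from group means correlated at 0.291, 0.230 and 0.393 between arrays of the same replicate number (titles of the samples) and from -0.381 to 0.0285 otherwise. Numbers were therefore taken to pair the samples in the replicate block, an alternative setting. Deviations cancel out within a group, so the lower correlations otherwise are partly fixed by the higher ones. Neither the titles nor the paper says that samples were paired, and replicate 1 was the dimmest array of each group. Whether that dimness gave the correlations was not tested. The main fit and the main test of the COR15 ratio did not use this pairing. Alternatives were other scalings, another floor, no filter, the replicate block and leaving out each array. P-values set the difference between the groups against the spread between these arrays. With no scaling, and likewise with spike-in scaling, the fit used the same spread for all the measured genes.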

Additional observations from a re-analysis of the deposited data

How the results depend on the processing

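LTI30 and COR47 were called higher in all 13 alternative settings. Leaving out 1 array at a time gave log2 fold changes of 5.14 to 6.23 for LTI30, 1.92 to 2.19 for COR47, 2.002 to 3.06 for COR15A, 0.49 to 0.92 for AT1G54410 and -0.23 to 1.78 for COR15B, where the value of -0.23 came without watered replicate 1. The number of measured genes called higher was then 3 to 5, that of all probe sets called higher 1908 to 2888, and that of pathway list genes called higher 1 to 3, against 4 with all arrays. Without a water deficit array only 2 pathway list genes passed the filter. Without a filter COR15A had the same log2 fold change of 2.40 but an adjusted p of 0.074, and 2 of 6 pathway list genes were called. With the replicate block AT1G54410 was called (log2 fold change 0.71, adjusted p = 0.0289), and no other call on the 5 measured genes changed. With no scaling 1030 probe sets were called higher and 370 lower, and with spike-in scaling 1344 and 525. Without both replicate 1 arrays, a setting chosen after seeing the data, COR15B had a log2 fold change of -0.68 (adjusted p = 0.583) and 1 of 2 pathway list genes was called. The cause of these differences was not tested. The difference in the log2 ratio of COR15A to COR15B stayed above 0, from 1.28 to 2.79, in designs too small to reach a p under 0.05. Paired by replicate number, the exact permutation test (two-sided) of this difference gave p = 0.5. The difference was not computed without a filter, which does not enter it. With 3 arrays a group and no depth behind a signal, only large changes could be told from the spread of COR15B.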
